A study of Mus musculus with 6 samples.

Results

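The 38 genes described here form the core of the cell cycle machinery. They were chosen by name from a list drawn up with earlier results of these data known, and all 38 were found among the 32285 genes of the count table and passed the filter on low counts that left 20021 genes for testing. By role they comprise 16 genes of mitosis, 13 genes of S phase and entry into it, 5 G1 cyclins and kinases, and 4 inhibitors of cyclin-dependent kinases. The main test called none of the 38 different between the groups, and 63 of all genes. An alternative test, DESeq2, which called 135 of all genes, called Bub1b lower in OIR-CIH. The mitosis genes had mostly lower levels in OIR-CIH retinas, with 14 of 16 log2 fold changes below 0. In 43 further genes of a published G2/M list, 22 were below 0 and 21 above (median -0.01). Bub1b, a kinase of the spindle checkpoint, came closest to the threshold. It had 18.4 ± 2.23 CPM (counts per 1000000 counted reads) in OIR-CIH and 26.2 ± 1.123 in OIR-Norm (SD, n = 3 each). The S phase genes, the G1 kinases and most inhibitors had log2 fold changes near 0.

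Retinas came from C57BL/6J mice of wild-type genotype in the model of oxygen-induced retinopathy (OIR), in which hyperoxia of 75% O2 for 5 days from postnatal day (PN) 8 closes central retinal vessels and the return to room air at PN13 starts new vessel growth. OIR-Norm mice then stayed at a constant O2 concentration, and OIR-CIH mice went into chronic intermittent hypoxia (CIH), 10 h a day with 266 cycles of 135 s in which cage O2 dropped from 20.95% to 5%. Both groups had been through hyperoxia, both received the same gas flow and noise, and all retinas were taken at PN18. Each group held 3 RNA-sequencing libraries, with total counts of 26289905 to 38010151. The comparison asks whether CIH after OIR shifted the cell cycle genes of the whole retina.

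Cells divide through an ordered series of phases. Cyclin D with Cdk4 or Cdk6 carries a cell through G1, cyclin E with Cdk2 and the E2F factors open S phase, in which the Mcm helicase and Pcna serve DNA replication, and cyclins A and B with Cdk1 drive mitosis, in which the spindle checkpoint holds back the separation of chromosomes. In the mouse retina the neural progenitors have stopped dividing well before weaning, and dividing cells in the OIR model include endothelial cells, pericytes and microglia. Inhibitors such as Cdkn1b and Cdkn1c keep differentiated cells out of the cycle.

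All 6 libraries held both Xist RNA, at 9197 counts or more, and RNA of the Y-linked gene Ddx3y, at 540 counts or more. RNA of both sexes in every library is at odds with the study's methods, which name 3 eyes per group and so would make each library 1 eye of 1 animal. The number of animals behind a library is therefore not known, and n and SD are over libraries. The retinal identity was clear from 9 rod marker genes, which summed to 48971 to 63629 CPM per library. The library OIR-Norm replicate 2 stood apart in 10 marker genes of lens and pigment epithelium, with a sum of 655.67 CPM against 214.56 to 471.21 in the other 5 libraries, and it was the highest library for 9 of 12 endothelial and 8 of 9 pericyte and smooth muscle markers. In RNA of a whole retina, fewer cells of a type and less RNA per cell cannot be told apart.

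The promoters of mitosis and S phase members differed in their shares of CHR and E2F matches, as defined below, and 4 promoters are shown as examples. RefSeq windows of 250 bases before to 50 bases after the start of transcription (build GRCm38.p6) matched 29 of the 38 members, 12 of mitosis, 11 of S phase, 3 G1 genes and 3 inhibitors. Each window was searched on both strands for TTTGAA, the cell cycle homology region (CHR) known from promoters of mitotic genes, for CCAAT, the CCAAT box, and for 4 words of E2F sites, TTTCCCGC, TTTCGCGC, TTTGCCGC and TTTGGCGC. Below, the bases before the start are printed 5′ to 3′ on the strand of the gene, with each match to a motif or its reverse complement in capitals. Where 2 matches overlap they form 1 capital run.
Bub1b, chr2:118597961-118598210, plus strand: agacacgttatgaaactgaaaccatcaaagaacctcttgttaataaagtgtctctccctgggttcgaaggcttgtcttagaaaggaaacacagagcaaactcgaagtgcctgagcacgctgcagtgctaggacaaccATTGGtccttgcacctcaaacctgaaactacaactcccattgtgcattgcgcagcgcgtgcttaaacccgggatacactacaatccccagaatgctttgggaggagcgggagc
Mki67, chr7:135716380-135716629, minus strand: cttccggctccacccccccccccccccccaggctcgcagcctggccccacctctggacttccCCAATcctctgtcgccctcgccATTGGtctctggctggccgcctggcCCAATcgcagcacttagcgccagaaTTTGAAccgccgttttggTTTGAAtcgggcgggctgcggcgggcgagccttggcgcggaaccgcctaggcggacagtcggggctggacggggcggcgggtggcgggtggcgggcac
Cdk1, chr10:69352913-69353162, minus strand: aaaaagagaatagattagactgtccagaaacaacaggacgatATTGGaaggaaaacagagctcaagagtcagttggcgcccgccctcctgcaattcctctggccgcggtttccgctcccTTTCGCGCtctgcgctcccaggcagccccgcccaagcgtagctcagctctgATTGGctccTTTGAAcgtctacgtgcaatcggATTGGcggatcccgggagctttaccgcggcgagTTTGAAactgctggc
Mcm6, chr1:128359706-128359955, minus strand: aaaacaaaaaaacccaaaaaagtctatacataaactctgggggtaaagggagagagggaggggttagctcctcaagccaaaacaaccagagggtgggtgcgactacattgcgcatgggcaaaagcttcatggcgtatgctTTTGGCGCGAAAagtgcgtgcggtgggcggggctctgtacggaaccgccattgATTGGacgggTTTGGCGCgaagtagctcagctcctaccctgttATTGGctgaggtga

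A CHR match was present in 9 of the 12 mitosis promoters (75%), in 1 of the 11 S phase promoters (9.09%, Mcm2) and in 20.2% of the 27025 genes with a promoter in the table. In Mki67 the CHR letters began 116 and 98 bases before the start, in Cdk1 71 and 15 bases before it, and in Bub1b 40 bases after it. The Bub1b match thus lies outside the bases printed. A CCAAT box was found in 11 of 12 mitosis promoters (91.7%), in 8 of 11 S phase promoters (72.7%) and in 41.1% of all genes. E2F words were present in 5 of 11 S phase promoters (45.5%; Mcm3, Mcm5, Mcm6, Mcm7 and Cdk2), in 1 of 12 mitosis promoters (8.33%; Cdk1) and in 2.6% of all genes. None of the 3 G1 or 3 inhibitor promoters held a CHR or E2F match. A CCAAT box was found in 1 of the 3 G1 promoters (33.3%) and 2 of the 3 inhibitor promoters (66.7%). These matches describe the letters in the windows and say nothing of binding.

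Levels are compared between genes as CPM per kilobase of annotated exon. On that scale the inhibitor Cdkn1b was highest, with a mean of 35.01 CPM per kilobase over the 6 libraries, followed by the sliding clamp Pcna at 26.4, the G1 kinase Cdk4 at 12.5 and the inhibitor Cdkn1c at 10.6. The ranges of these 4 over the 6 libraries did not overlap except for Cdk4 (11.2 to 13.5) and Cdkn1c (8.49 to 13.7). The lowest levels were all of mitosis genes. Ccnb1, a cyclin that activates Cdk1, had 0.163 CPM per kilobase, Aurkb, a kinase of the chromosomal passenger complex, 0.166, and the checkpoint kinase Bub1 0.203, with overlapping ranges among them. Bub1b did not follow the other mitosis genes: its 5.22 CPM per kilobase (3.97 to 6.4) placed it 8th of 38, while its partner Bub1 was 36th. Cyclin A2 (Ccna2) was 12th at 3.75, although 510 of its 4083 exon bases overlap Exosc9 on the opposite strand.

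**Figure D1:**
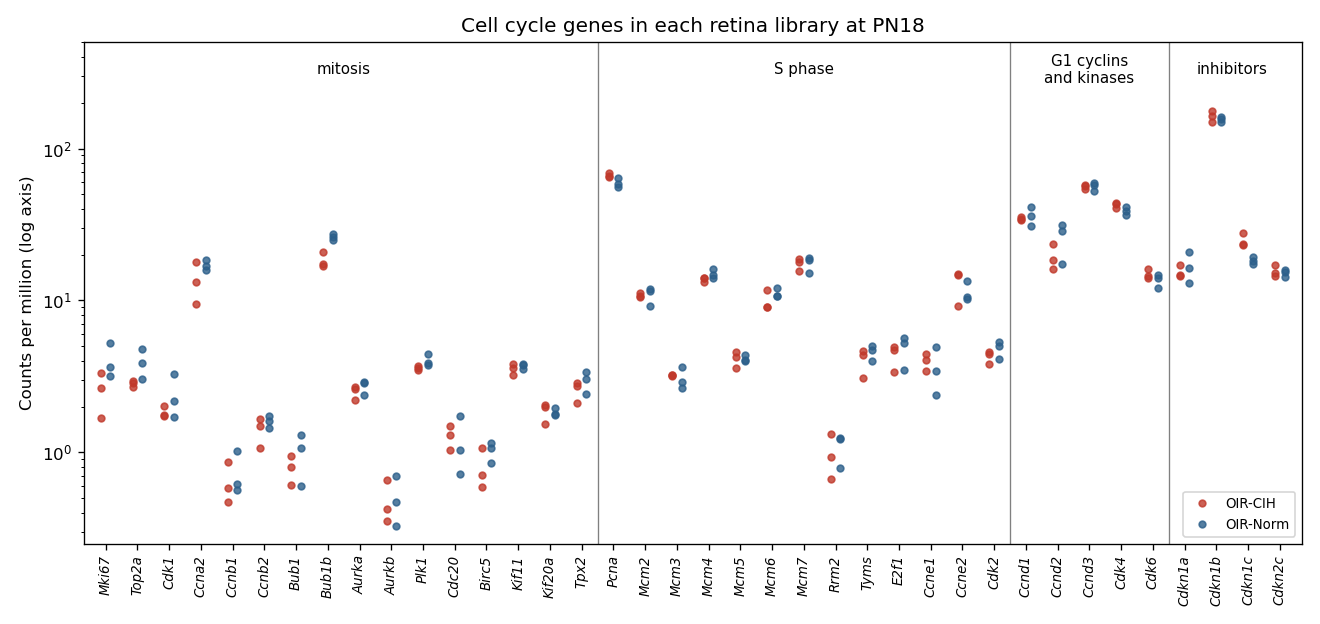
Level of each of the 38 cell cycle genes in CPM (log axis) in the 3 OIR-CIH (red) and 3 OIR-Norm (blue) libraries, 1 point per library. Mitosis genes other than Bub1b and Ccna2 lie below 6 CPM in every library, and Cdkn1b lies above all others at 148.9 to 176 CPM.

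A gene was called when edgeR's quasi-likelihood test gave a Benjamini-Hochberg adjusted p under 0.05 over the 20021 genes and the log2 fold change, OIR-CIH over OIR-Norm, exceeded 0.5 in size. Of all tested genes 63 (0.315%) were called, 21 higher and 42 lower in OIR-CIH, and of the 38 members 0 were called by this test. At an unadjusted p under 0.05 there were 4 members (10.5%; Bub1b, Mki67, Top2a and Cdkn1c), against 13.4% of all genes. In 6 members (15.8%) the 3 libraries of one group all lay above the 3 of the other, against 18.4% of all genes. DESeq2 called 135 of all 20021 genes, and 1 member, Bub1b. By limma on log2(CPM + 0.5) 66 genes were called and by limma-voom 58, with 0 members in both. The median log2 fold change of the 38 members was -0.11, with 26 below 0 (68.4%), and that of all genes -0.01, with 50.9% below 0. The members' 95% intervals lay wholly between -0.5 and 0.5 for 16 genes, so for the other 22 a change of the size needed for a call was not excluded by these 6 libraries.

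**Figure D2:**
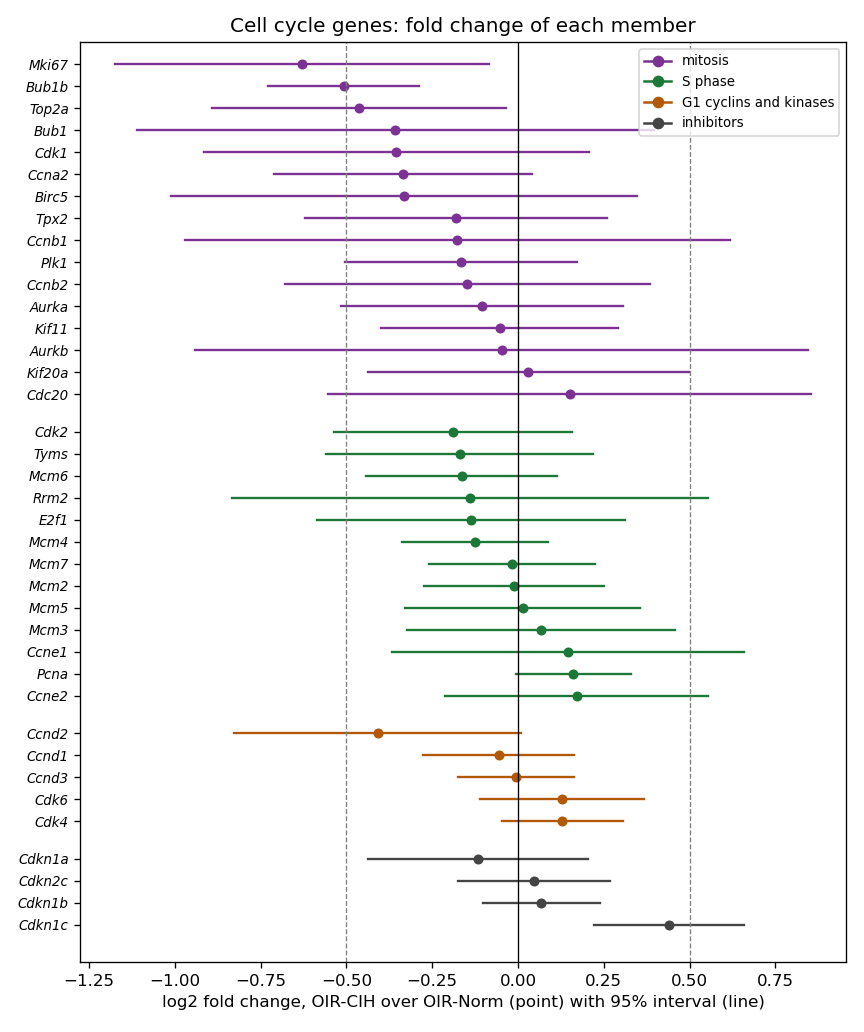
log2 fold change (OIR-CIH over OIR-Norm) of each member with its 95% interval from edgeR's quasi-likelihood fit, grouped by role, with dashed lines at -0.5 and 0.5. In mitosis 14 of 16 points lie left of 0 with wide intervals, Cdkn1c is the rightmost point at 0.44, and S phase points lie between -0.19 and 0.17.

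Mitosis genes had a median log2 fold change of -0.18, and 14 of 16 values were below 0. Their summed level was 51.3, 62.5 and 61.9 CPM in OIR-CIH replicates 1 to 3 and 73.9, 77.8 and 72.9 CPM in OIR-Norm replicates 1 to 3, so that all OIR-CIH libraries lay below all OIR-Norm libraries. Bub1b alone made up 27.1% to 37.5% of that sum. Without Bub1b the sum was 34.1, 45.6 and 40.9 CPM in OIR-CIH and 47.7, 52.7 and 45.5 CPM in OIR-Norm, and the groups then overlapped, OIR-CIH replicate 2 lying just above OIR-Norm replicate 3. No p is given for these sums, since the genes were chosen with earlier results known.

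Bub1b (ENSMUSG00000040084, chr2:118598211-118641591, plus strand) encodes the checkpoint protein that keeps the anaphase-promoting complex inactive until chromosomes are attached. It had 17.3, 16.9 and 21.0 CPM in the OIR-CIH libraries and 26.2, 25.1 and 27.4 CPM in the OIR-Norm libraries. The groups did not overlap, and the lowest OIR-Norm library was well above the highest OIR-CIH library. Its log2 fold change was -0.51 ± 0.10 (SE; 95% interval -0.73 to -0.29), with an edgeR p of 0.000282 and an adjusted p of 0.0626, which misses the threshold. DESeq2 gave an adjusted p of 0.0023 for the same change, and without OIR-CIH replicate 3 edgeR called the gene too (log2 fold change -0.62, adjusted p 0.0386). Over all alternatives with 6 libraries the adjusted p ran from 0.0023 to 0.0716, and with 1 library left out from 0.0386 to 0.303. The study, which used DESeq on these same libraries, also lists Bub1b among its significantly changed genes. These values are therefore not independent evidence of its direction. No exon of another gene overlapped Bub1b among the gene types searched. These were protein-coding, antisense, long intergenic RNA, provisional (TEC) and processed pseudogene entries.

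Mki67 (ENSMUSG00000031004, chr7:135689784-135716361, minus strand) encodes the Ki-67 protein that coats mitotic chromosomes and serves as the usual marker of cycling cells. It had 1.69, 3.33 and 2.65 CPM in OIR-CIH and 3.67, 5.23 and 3.17 CPM in OIR-Norm, on 43 to 149 counts per library. OIR-Norm replicate 2 was highest and OIR-CIH replicate 1 lowest, and the groups overlapped. The log2 fold change of -0.63 ± 0.25 had an adjusted p of 0.319 and a 95% interval from -1.17 to -0.09. Without OIR-Norm replicate 2 it was -0.40, and without OIR-CIH replicate 2 it was -0.84.

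Top2a, the topoisomerase that untangles DNA before chromosomes separate, had 2.94, 2.88 and 2.67 CPM in OIR-CIH and 3.90, 4.81 and 3.02 CPM in OIR-Norm. The groups lay apart by a narrow margin, between OIR-CIH replicate 1 and OIR-Norm replicate 3. Its log2 fold change was -0.46 ± 0.20 (adjusted p 0.345), with -0.29 without OIR-Norm replicate 2 and -0.62 without OIR-Norm replicate 3. Plk1, the polo-like kinase of mitotic entry, had non-overlapping groups as well, with 3.69, 3.47 and 3.57 CPM against 3.90, 4.42 and 3.74 CPM and a log2 fold change of only -0.17 ± 0.16. For a single gene with 3 libraries a group the smallest p an exact two-sided permutation test can give is 0.1. The 6 members with groups apart reached it (Bub1b, Top2a, Plk1, Mcm4, Pcna and Cdkn1c). Groups lay apart in 3 of the 16 mitosis genes (18.8%), against 18.4% of all genes.

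Cdk1, the kinase that starts mitosis, had 1.77, 1.73 and 2.01 CPM in OIR-CIH and 2.18, 3.30 and 1.70 CPM in OIR-Norm. Only OIR-Norm replicate 2 stood clearly above the rest, and the log2 fold change of -0.35 ± 0.26 became -0.06 without that library and -0.56 without OIR-Norm replicate 3. Ccna2 had 9.50, 17.9 and 13.3 CPM in OIR-CIH and 16.94, 15.96 and 18.4 CPM in OIR-Norm, so OIR-CIH replicate 2 lay within the OIR-Norm range. Its log2 fold change was -0.33 ± 0.17 (adjusted p 0.431), with -0.15 without OIR-CIH replicate 1 and -0.58 without OIR-CIH replicate 2.

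The remaining mitosis genes were low and noisy. The log2 fold changes were -0.36 ± 0.35 for Bub1, -0.33 ± 0.31 for Birc5, which encodes survivin of the passenger complex, and -0.05 ± 0.41 for its partner kinase Aurkb. Leaving out 1 library moved Bub1 between -0.63 and -0.12 and Birc5 between -0.66 and -0.16. The B-type cyclins gave -0.18 ± 0.37 for Ccnb1 and -0.15 ± 0.25 for Ccnb2. Among spindle genes the values were -0.18 ± 0.20 for the microtubule nucleation factor Tpx2, -0.10 ± 0.19 for its kinase Aurka, and -0.05 ± 0.16 for the motor Kif11. Both values above 0 were small, 0.15 ± 0.32 for Cdc20, the activator of the anaphase-promoting complex, and 0.03 ± 0.22 for the cytokinesis motor Kif20a, which shares 1271 of 4338 exon bases with Cdc23 on the opposite strand. Adjusted p for these 10 genes was between 0.682 and 0.969. Aurkb had 9 to 20 counts and Ccnb1 12 to 29 counts per library, which limits what could be seen for them.

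OIR-Norm replicate 2 was the highest of the 6 libraries for 10 of the 16 mitosis genes, and OIR-CIH replicate 1 the lowest for 7. Without OIR-Norm replicate 2 the median log2 fold change of the mitosis genes was -0.11 with 12 of 16 below 0, and without OIR-Norm replicate 3 it was -0.29 with 16 of 16 below 0. Without OIR-CIH replicate 1 it was -0.11 with 13 of 16 below 0, and without OIR-CIH replicate 2 it was -0.29 with 14 of 16 below 0. The median stayed below 0 whichever of the 6 libraries was left out, and its size depended on the library in both groups. The same library, OIR-Norm replicate 2, had the highest sums of the vascular marker lists. The 12 endothelial markers summed to 237 to 277 CPM in OIR-CIH and 235 to 320 CPM in OIR-Norm, and the 9 pericyte and smooth muscle markers to 87.2 to 133 CPM and 95.1 to 229.98 CPM. Of the 12 endothelial markers 9 had log2 fold changes below 0 and 3 above (median -0.25). None was called by edgeR or DESeq2, and 0 had an unadjusted p under 0.05 by edgeR. All 9 pericyte and smooth muscle markers had log2 fold changes below 0, with 0 called by edgeR and 1 by DESeq2. Of these 9, 2 (22.2%) had an unadjusted p under 0.05 by edgeR, against 13.4% of all genes. The 12 microglia markers summed to 108 to 124 CPM in OIR-CIH and 131 to 149 CPM in OIR-Norm, without overlap. Of these 12, 11 had log2 fold changes below 0, with 0 called by edgeR and 1 by DESeq2. Over all 20021 genes edgeR called 63 and DESeq2 135. An unadjusted p under 0.05 by edgeR was found for 6 (50%), against 13.4% of all genes. No marker of these 3 lists was at 0 in any library. The part of these cell types in the mitosis values was not tested.

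**Figure D3:**
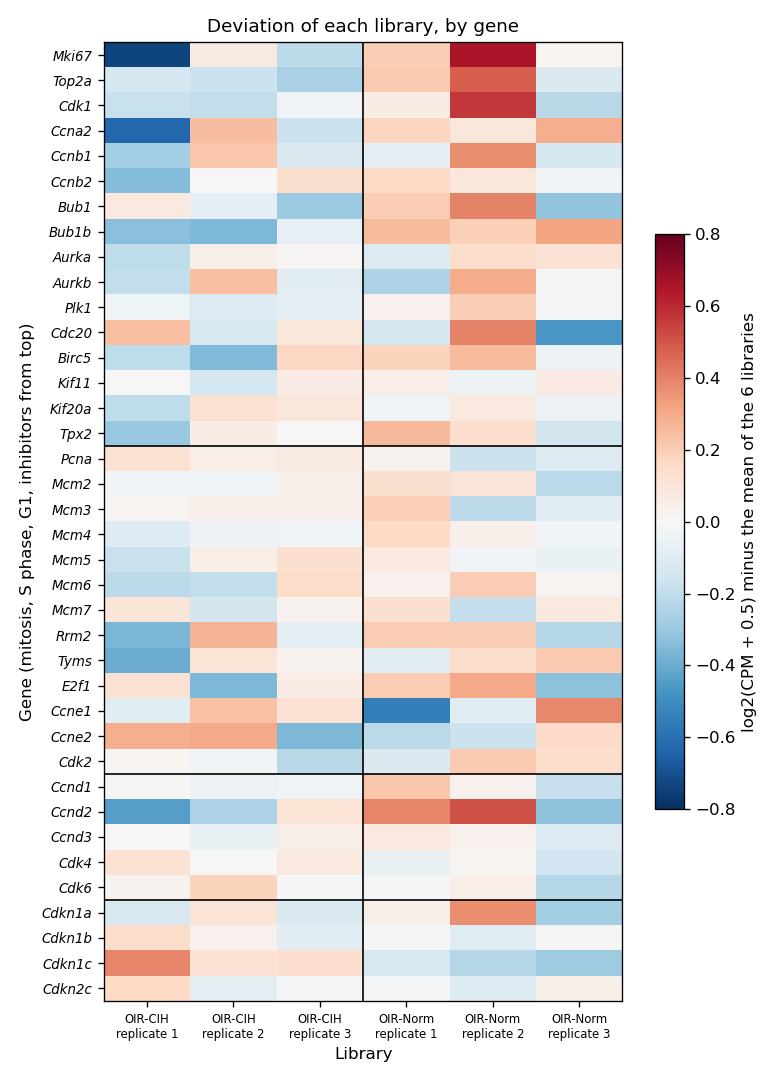
Deviation of each library from the mean of the 6 libraries, as log2(CPM + 0.5), for the 38 genes (rows) in 6 libraries (columns), with lines between roles and between groups. The column of OIR-Norm replicate 2 is red, above the mean, over most mitosis rows (median 0.23), that of OIR-CIH replicate 1 mostly blue (median -0.20). S phase rows range from pale, as in Pcna, to coloured, as in Ccne1 (-0.55 to 0.38).

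S phase genes showed no common direction. Their median log2 fold change was -0.02, with 8 of 13 below 0, and 7 of the 13 intervals lay wholly between -0.5 and 0.5. The summed level was 155 to 158 CPM in OIR-CIH and 147 to 157 CPM in OIR-Norm. The edgeR test called 0 of them, and 0 had an unadjusted p under 0.05, against 13.4% of all genes.

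Pcna, the clamp that holds DNA polymerase on its template, had 68.8, 65.4 and 66.3 CPM in OIR-CIH and 64.4, 56.1 and 58.8 CPM in OIR-Norm. All OIR-CIH libraries lay above all OIR-Norm libraries, by a difference of 0.16 ± 0.08 on the log2 scale (adjusted p 0.388). The 6 Mcm genes encode the hexameric helicase of the replication fork, and they stayed close together. Their log2 fold changes were -0.01 ± 0.12 for Mcm2, 0.07 ± 0.18 for Mcm3, -0.12 ± 0.10 for Mcm4, 0.01 ± 0.16 for Mcm5, -0.16 ± 0.13 for Mcm6 and -0.02 ± 0.11 for Mcm7. Every one of the 6 intervals lay within -0.5 to 0.5. Mcm4 was the only one with groups apart, at 13.3, 13.9 and 13.97 CPM in OIR-CIH and 16.1, 14.8 and 14.1 CPM in OIR-Norm, a gap smaller than the spread within the OIR-Norm group.

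The enzymes that supply deoxynucleotides gave -0.14 ± 0.32 for Rrm2, the small subunit of ribonucleotide reductase, and -0.17 ± 0.18 for Tyms, thymidylate synthase. E2f1, the activating transcription factor of S phase entry, had -0.14 ± 0.21. The E-type cyclins gave 0.15 ± 0.24 for Ccne1 and 0.17 ± 0.18 for Ccne2, and their kinase Cdk2 -0.19 ± 0.16. The intervals of these 6 genes all reached beyond 0.5 in size on at least one side, so a change of that size was not excluded for any of them. Ccne2 was uneven within OIR-CIH, with 14.7 and 14.9 CPM in replicates 1 and 2 and 9.18 CPM in replicate 3.

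Among the G1 genes, Ccnd2 set itself apart from its relatives. Cyclin D2 had 15.97, 18.3 and 23.5 CPM in OIR-CIH and 28.8, 31.2 and 17.4 CPM in OIR-Norm. OIR-Norm replicates 1 and 2 were high and replicate 3 lay inside the OIR-CIH range. The log2 fold change was -0.41 ± 0.19 (95% interval -0.83 to 0.01, adjusted p 0.382), between -0.63 without OIR-Norm replicate 3 and -0.25 without OIR-Norm replicate 2. Ccnd2 overlaps transcripts of the opposite strand over 740 of its 9409 exon bases. The other D-type cyclins gave -0.06 ± 0.10 for Ccnd1 and -0.01 ± 0.08 for Ccnd3, and the kinases 0.13 ± 0.08 for Cdk4 and 0.13 ± 0.11 for Cdk6. All 4 of these intervals lay within -0.5 to 0.5. The library OIR-Norm replicate 3 was the lowest of 6 for Ccnd1, Ccnd3, Cdk4 and Cdk6.

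Cdkn1c (ENSMUSG00000037664, chr7:143458339-143461050, minus strand) encodes the inhibitor Kip2, which holds cells in G1 and marks cells leaving the cycle. It had 27.9, 23.1 and 23.4 CPM in OIR-CIH and 19.3, 18.1 and 17.3 CPM in OIR-Norm. The groups did not overlap, and OIR-CIH replicate 1 was the highest. Its log2 fold change of 0.44 ± 0.10 (95% interval 0.22 to 0.66) had an edgeR p of 0.000885 and an adjusted p of 0.127. DESeq2 gave an adjusted p of 0.0176, but the change is below the 0.5 needed for a call. Over the alternatives with 6 libraries the adjusted p ran from 0.0176 to 0.135, and with 1 library left out from 0.136 to 0.420. The annotation places Gm44732 on the opposite strand over 625 of its 2039 exon bases, and which strand the counts hold is not given in the sources used here, so reads of both cannot be told apart there.

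The other inhibitors gave 0.07 ± 0.08 for Cdkn1b (Kip1), 0.05 ± 0.10 for Cdkn2c, an inhibitor of Cdk4 and Cdk6, and -0.12 ± 0.15 for Cdkn1a, the inhibitor induced by p53. All 3 intervals lay within -0.5 to 0.5. Cdkn1b, the most abundant member, had 176, 163 and 150.4 CPM in OIR-CIH and 157, 148.9 and 160.4 CPM in OIR-Norm. Cdkn1a was highest in OIR-Norm replicate 2 at 20.7 CPM and lowest in OIR-Norm replicate 3 at 13.1 CPM, a spread within 1 group that covered all OIR-CIH values.

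**Figure D4:**
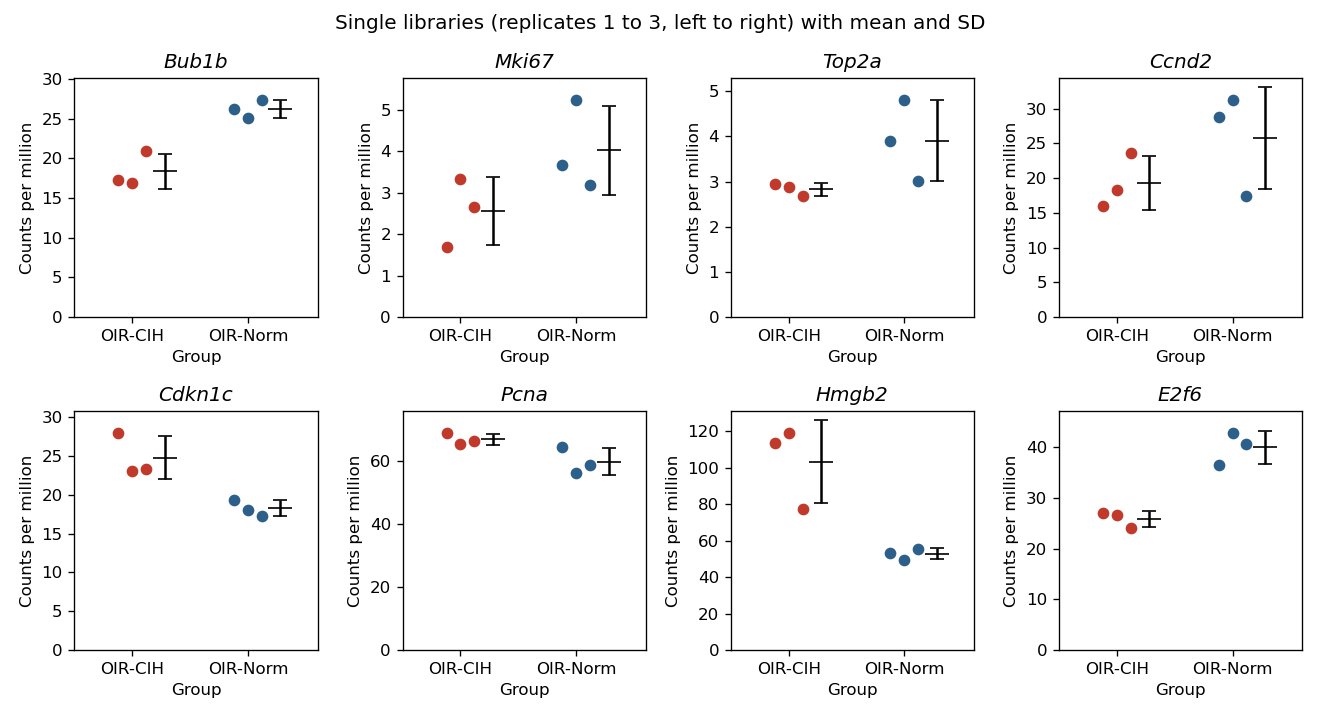
CPM in each library (points, replicates 1 to 3 from left to right) with mean and SD (bars) for 6 members and for Hmgb2 and E2f6. Bub1b and E2f6 lie lower and Cdkn1c, Pcna and Hmgb2 higher in all 3 OIR-CIH libraries, Top2a lies lower by a narrow margin, and Mki67 and Ccnd2 overlap between groups.

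Of 125 further genes in 4 companion lists edgeR called 2, against 63 of all 20021 genes (0.315%). In a published list of G2/M genes, 43 of which are not members, 22 had log2 fold changes below 0 and 21 above, with a median of -0.01, and 1 was called. This was Hmgb2, which encodes a chromatin protein of the high mobility group that is abundant in dividing and progenitor cells, with 113.8, 119.0 and 77.2 CPM in OIR-CIH and 53.2, 49.5 and 55.5 CPM in OIR-Norm. All OIR-CIH libraries were higher, by 0.97 ± 0.13 on the log2 scale (adjusted p 0.00789), a direction opposite to that of most mitosis members. The call was lost without OIR-CIH replicate 1, where the log2 fold change was 0.89 and the adjusted p 0.0658, and it held without each other library, with adjusted p up to 0.0333. In 33 further cell cycle regulators, 17 values lay below 0 and 16 above (median -0.02), and 1 was called. This was E2f6, a repressor of the E2F family, with 27.0, 26.5 and 24.0 CPM in OIR-CIH and 36.5, 42.8 and 40.5 CPM in OIR-Norm. It fell by 0.63 on the log2 scale, with an SE of 0.09 and an adjusted p of 0.00845, and it was called in every alternative, with adjusted p up to 0.0465. Hmgb2 and E2f6 are also in the study's list of significantly changed genes, which it called on these same libraries.

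Of 35 further genes in a published list of S phase genes 0 were called by edgeR, DESeq2 or both limma fits. An unadjusted p under 0.05 by edgeR was found for 3 (8.57%), against 13.4% of all genes. The median was 0.07 with 21 of 35 above 0, and the lowest p were those of Casp8ap2 (-0.34 ± 0.11, adjusted p 0.247) and Cdc45, a partner of the Mcm helicase (0.48 ± 0.17, adjusted p 0.277). Of 15 target genes of p53 0 were called by edgeR, 0 by DESeq2 and limma-voom and 1 by limma on log2(CPM + 0.5). Of these 15, 6 (40%) had an unadjusted p under 0.05 by edgeR, against 13.4% of all genes. The directions were mixed, with 8 log2 fold changes below 0 and 7 above (median -0.03). The lowest p were those of Eda2r, a receptor of the tumor necrosis factor family, and Gadd45a, a gene of growth arrest. Eda2r had 0.235, 0.173 and 0.0529 CPM in OIR-CIH and 0.941, 0.491 and 1.04 CPM in OIR-Norm, with a log2 fold change of -2.52 ± 0.52 and an adjusted p of 0.0743, and it was the gene called by limma. Its level was near the floor, down to 2 counts in OIR-CIH replicate 3, so its size of change is uncertain. Gadd45a had 45.9, 35.6 and 33.7 CPM in OIR-CIH and 27.8, 24.8 and 29.4 CPM in OIR-Norm (0.49 ± 0.12, adjusted p 0.146).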

How the data were processed

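Polyadenylated RNA of 6 retina libraries, prepared with a stranded kit from 250 ng total RNA, had been sequenced. The authors aligned reads with STAR 2.7.9a, counted reads per gene with its own counter, and deposited whole-number raw counts in 1 table without normalization. The paper names Ensembl 105, while the submitters' processing notes name GRCm38. The strand column kept is not given in the sources used here. Symbols and coordinates came from GENCODE M21 (GRCm38) by gene identifier (32158 of 32285 matched). Of the members, 14 share exon bases with a gene of the opposite strand among the gene types searched, and 5 have named pseudogenes (Ccnb1, Ccnb2, Pcna, Tyms and Ccnd3), so their counts are less certain.

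Testing was limited to genes whose 6 counts summed to 10 or more. Counts were scaled by TMM and tested with edgeR 4.0.16 (quasi-likelihood, R 4.3.3), OIR-CIH against OIR-Norm. CPM use the scaled library sizes. Alternatives were DESeq2 1.42.0, its size factors, limma 3.58.1 on log2(CPM + 0.5), limma-voom, the older quasi-likelihood fit, other count filters, a replicate block, calls without a fold limit, and each library dropped in turn. The fits were tested on simulated data. Members, lists and the rule for naming genes (all members, called genes of each companion list, or its 2 lowest p) were chosen with earlier results of these data known. No 2 replicates of a group agreed within sampling noise. P-values measure the spread between libraries, since nothing says that replicates came from separate animals. Intervals cover the fitted spread between libraries.

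Marker lists gave these further sums per library, OIR-CIH and then OIR-Norm. The 11 Mueller glia and astrocyte markers had 3684 to 4426 and 3740 to 4166 CPM, the 9 retinal progenitor markers 611 to 677 and 575 to 609 CPM, and the 6 red cell markers 56.2 to 75.4 and 52.1 to 115 CPM. Of the 11 glia markers edgeR called 1 (Gfap, lower), against 0.315% of all genes.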

Additional observations from a re-analysis of the deposited data

How the results depend on the processing

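Over all genes, calls numbered 63 with edgeR and 135 with DESeq2 (101 lower, 34 higher), and 29 to 97 when 1 library was left out (fewest without OIR-CIH replicate 1 and most when OIR-Norm replicate 3 was dropped). Members called numbered 0 in every alternative except DESeq2 (1, Bub1b) and leaving out a library (0 to 1, Bub1b without OIR-CIH replicate 3). Calls in the companion lists numbered 1 to 3 with 1 library left out. Medians of log2 fold changes with 1 library left out were -0.29 to -0.11 for mitosis and -0.10 to 0.0027 for S phase genes, and -0.059 to 0.044 for G1 genes and -0.0098 to 0.093 for inhibitors. Mcm5 was -0.0034 with limma on log2(CPM + 0.5) and Mcm2 0.00047 with limma-voom.

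Members near 0 changed sign when 1 library was left out. Their log2 fold changes then spanned -0.43 to 0.12 for Ccnb1, -0.32 to 0.26 for Aurkb, -0.11 to 0.53 for Cdc20, -0.12 to 0.0098 for Kif11, -0.035 to 0.13 for Kif20a, -0.12 to 0.049 for Mcm2, -0.028 to 0.20 for Mcm3, -0.073 to 0.096 for Mcm5, -0.11 to 0.050 for Mcm7, -0.39 to 0.029 for Rrm2, -0.33 to 0.0070 for E2f1, -0.090 to 0.46 for Ccne1, -0.16 to 0.044 for Ccnd1, -0.059 to 0.029 for Ccnd3, -0.27 to 0.063 for Cdkn1a and -0.026 to 0.095 for Cdkn2c. Other members kept their sign but moved by over 1.5 times, with spans of -0.31 to -0.0058 for Ccnb2, -0.20 to -0.031 for Aurka, -0.22 to -0.095 for Plk1, -0.31 to -0.074 for Tpx2, -0.17 to -0.075 for Mcm4, -0.31 to -0.10 for Mcm6, -0.27 to -0.034 for Tyms, 0.051 to 0.38 for Ccne2, -0.30 to -0.11 for Cdk2, 0.084 to 0.17 for Cdk4, 0.046 to 0.19 for Cdk6 and 0.0062 to 0.12 for Cdkn1b. The causes were not tested.

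Deviations of same-numbered libraries from their group means had correlations of 0.16, 0.14 and -0.24. With so few libraries a group these values are constrained by the centring, so they cannot decide whether replicate numbers mark pairs. With the replicate block 68 genes and 0 members were called, and Bub1b had an adjusted p of 0.0716. Depth limits the rarest members, Aurkb and Ccnb1 above all.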
